A study of Mus musculus with 16 samples.

Results

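The 54 genes described here encode the nuclear subunits of respiratory complexes II to V and, where their names begin with Cox, assembly factors of complex IV. They were chosen by name from the 17883 genes of the deposited matrix: Sdha to Sdhd, and every gene whose name begins with Uqcr, with Cox and a digit, or with Atp5, leaving out names that end in -ps. No measured value entered the choice. By role they were 4 genes of complex II, 8 of complex III, 15 subunit genes of complex IV, 9 assembly genes of complex IV, 17 genes of complex V and Cox7a2l, a factor of supercomplexes of complexes III and IV.

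The series studied METTL3, the methyltransferase that puts N6-methyladenosine (m6A) on mRNA, in fat that turns beige in the cold. It holds 16 libraries of adipose tissue of C57BL/6 mice aged 8 weeks, of a depot that is not specified, in 8 groups of 2. The mice labelled cKO carried METTL3 flox/flox with Adipoq-Cre +/- and were housed singly at 4 °C for 7 days (cKO cold). WT cold mice carried METTL3 flox/flox without Cre and were kept in the same cold, and WT RT mice had the same genotype and were untreated at room temperature. All 3 conditions therefore carried the floxed allele, and Adipoq-Cre is active in adipocytes, so the other cells of the tissue keep the gene. Each condition gave input RNA and RNA precipitated with an anti-m6A antibody, and cKO cold and WT cold also gave ribosome-protected fragments (footprints). The labels do not state that the libraries of a group came from different animals, so the p-values measure the spread between these libraries, which may be technical.

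Levels are the deposited RPKM, reads scaled to gene length and library size, and log2 fold changes are those of RPKM + 1 with their standard errors and n = 2 libraries per group. A gene is called higher or lower where the limma test, adjusted by Benjamini-Hochberg over all genes tested, gave an adjusted p under 0.05. All 54 genes passed the filter of at least 1 RPKM in at least 2 libraries in every fit. A p that misses the threshold does not show that values did not differ.

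In the inner membrane of mitochondria, complex II passes electrons from succinate to ubiquinone, complex III passes them from ubiquinol to cytochrome c, and complex IV passes them from cytochrome c to oxygen. Complexes III and IV pump protons, and complex V, the ATP synthase, lets protons back through its membrane ring to make ATP. In brown and beige fat the uncoupling protein UCP1 offers protons another way back, and the energy leaves as heat, so these cells hold much respiratory chain and little ATP synthase for it. Several small subunits of complex IV come from a pair of genes, with a common or liver-type isoform (Cox6a1, Cox7a2, Cox8a) and a heart and muscle isoform (Cox6a2, Cox7a1, Cox8b), and Cox7a1 and Cox8b are also used as markers of brown and beige fat.

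The promoters of the isoform pairs with the largest differences below differ in sequence, and they are shown because the 2 members of a pair are placed against each other throughout. Promoters were taken from RefSeq (GRCm38.p6) as the 250 bases before to 50 bases after the gene start, and 42 of the 54 genes had one. Capitals mark the letters of a searched motif, on either strand. Cox8b lies at chr7:140900397-140900696 (minus strand), with TATAAA near the gene start, and Cox8a at chr19:7217567-7217866 (minus strand), with CTTCCGG at 2 places. Cox7a1 lies at chr7:30183921-30184220 (plus strand) and Cox7a2 at chr9:79759804-79760103 (minus strand), and neither held a searched motif.
Cox8b: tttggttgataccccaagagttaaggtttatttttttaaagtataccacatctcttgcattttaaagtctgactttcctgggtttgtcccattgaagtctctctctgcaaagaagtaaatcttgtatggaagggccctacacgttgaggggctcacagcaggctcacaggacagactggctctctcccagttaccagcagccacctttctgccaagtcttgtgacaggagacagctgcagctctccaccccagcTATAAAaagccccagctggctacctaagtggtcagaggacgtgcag
Cox8a: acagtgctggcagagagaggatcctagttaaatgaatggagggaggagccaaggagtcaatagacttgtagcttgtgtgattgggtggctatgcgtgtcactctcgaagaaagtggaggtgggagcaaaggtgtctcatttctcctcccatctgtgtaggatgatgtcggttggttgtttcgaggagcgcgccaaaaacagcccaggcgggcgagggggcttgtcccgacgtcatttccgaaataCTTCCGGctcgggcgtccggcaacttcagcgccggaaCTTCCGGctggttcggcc
Cox7a1: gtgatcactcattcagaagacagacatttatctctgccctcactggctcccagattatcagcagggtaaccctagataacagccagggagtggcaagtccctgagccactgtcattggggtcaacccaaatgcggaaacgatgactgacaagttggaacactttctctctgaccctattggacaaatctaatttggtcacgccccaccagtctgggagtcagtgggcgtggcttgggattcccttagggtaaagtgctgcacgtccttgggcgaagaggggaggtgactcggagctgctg
Cox7a2: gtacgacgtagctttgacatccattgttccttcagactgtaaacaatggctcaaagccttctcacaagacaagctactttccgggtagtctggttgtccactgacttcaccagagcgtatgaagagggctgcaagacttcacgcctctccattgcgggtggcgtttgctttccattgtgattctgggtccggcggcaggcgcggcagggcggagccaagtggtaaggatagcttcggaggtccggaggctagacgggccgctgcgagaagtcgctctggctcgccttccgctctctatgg

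Over the 42 promoters, the ETS motif bound by GABPA (CCGGAAG) was in 18, or 42.9%, against 9.93% of the promoters of 27025 genes. The core of the NRF1 motif (CGCATGCG) was in 7, or 16.7%, against 2.07% of all. AAGGTCA, read by oestrogen-related receptors, was in 5 (11.9%, against 5.38%), TATAAA in 4 (9.52%, against 15.7%) and the cAMP response element TGACGTCA in 1 (2.38%, against 2.03%). Both strands were searched, none of these motifs contains another, and the 27025 genes include non-coding ones. A match is a description of letters and shows neither binding nor control.

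Recovered reads numbered 3895031 to 8673393 in the input libraries, 4883129 to 6426541 in the m6A libraries and at least 1676208 to 2461267 in the footprint libraries. Mettl3 itself stood at 3.83 and 1.90 RPKM in cKO cold inputs and at 5.24 and 3.66 RPKM in WT cold inputs, a difference that did not pass (-0.53 ± 0.30, limma adjusted p = 0.215), and at 8.99 and 5.22 RPKM in cKO cold footprints, against 4.60 and 4.82 RPKM in WT cold footprints. These values cover the whole gene model and do not show the deletion, so cKO is used below for the libraries labelled so. Summed levels of 13 adipocyte markers ran from 10030 to 15126 RPKM over the inputs, with none at 0 in any library. Library codes of the WT RT libraries follow a numbering of their own, so for temperature and code numbering an effect of one cannot be told apart from the other. In bulk tissue, fewer cells of a type and less RNA per cell cannot be told apart either, which holds for every level below.

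Reads on the 54 genes made up 0.612% and 0.660% of the input reads in cKO cold, 0.998% and 0.967% in WT cold, and 0.501% and 0.550% in WT RT. The WT cold libraries were the highest, the cKO cold libraries stood between, and no group overlapped another. In footprints, where recovered reads are lower limits, the summed RPKM is given instead. It was 40584 and 44528 RPKM in cKO cold, against 72276 and 65093 RPKM in WT cold. By level, the most abundant gene of complex V was Atp5b, the catalytic beta subunit, with a mean input level of 580 RPKM. For complex IV it was Cox6a1 (462 RPKM), for complex III Uqcrb (241 RPKM) and for complex II Sdha (164 RPKM), while the highest assembly gene, Cox20, averaged 36.9 RPKM.

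**Figure D1:**
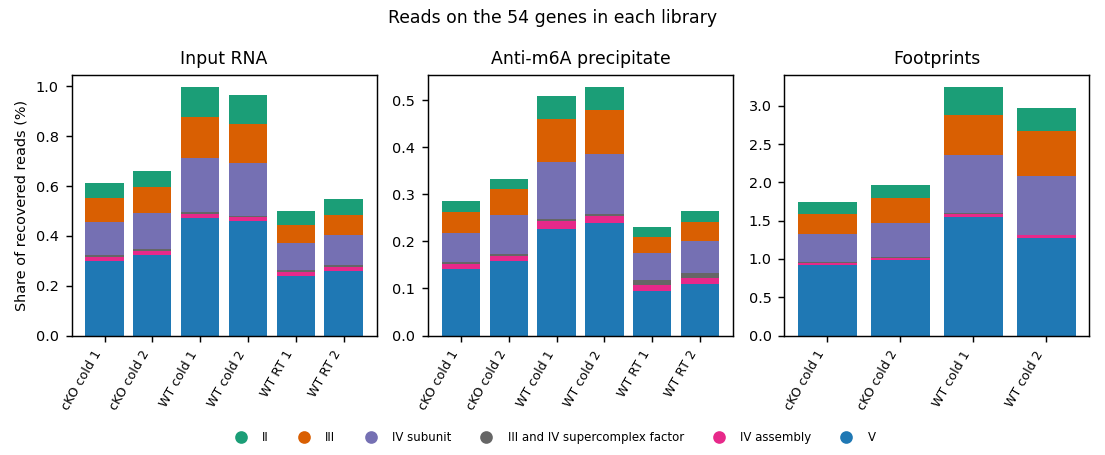
Share of the reads of each library that fell on the 54 genes (%), stacked by complex, for input RNA, the anti-m6A precipitate and footprints; each bar is 1 library and the vertical scales differ. The 2 WT cold inputs reach 0.998% and 0.967%, above the cKO cold inputs (0.612% and 0.660%) and the WT RT inputs (0.501% and 0.550%). Recovered footprint reads are lower limits and too low for some genes, so the footprint shares are not exact.

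Most subunit genes of every complex were higher in WT cold than in WT RT. This comparison asks how the respiratory chain's mRNAs differed after a week at 4 °C, with temperature and code numbering not told apart. Of the 54 genes, 36 rose and 6 fell in WT cold relative to WT RT, where 6.52% of the 12667 genes tested rose and 51.2% fell. The genes' median log2 fold change was 0.81, against -0.67 for all genes tested. Median-ratio scaling, which moved the median of all genes to -0.06, gave 44 higher and 1 lower of the 54 (18.8% and 20.5% of all genes), and quantile scaling gave 42 higher and 0 lower (20.9% and 18.6%). Increases were called for most of the genes under each scaling, and decreases for few or none outside the deposited scale.

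All 4 genes of complex II rose. Sdhd, a membrane anchor that helps hold ubiquinone, stood at 126 and 115 RPKM in WT cold and at 44.4 and 48.0 RPKM in WT RT, or 1.37 ± 0.12 on the log2 scale (limma adjusted p = 0.000248). Sdhb, the iron-sulphur subunit, stood at 199 and 213 RPKM in WT cold and 87.7 and 85.3 RPKM in WT RT (1.24 ± 0.11). Both genes were higher in each WT cold library than in either WT RT library. Sdha, the flavoprotein that oxidises succinate, rose by 0.83 ± 0.12, and Sdhc, the other anchor, by 0.47 ± 0.16.

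All 8 genes of complex III rose as well, by 0.65 to 1.55 on the log2 scale. Uqcrc2, a core protein, stood at 230 and 194 RPKM in WT cold and at 66.0 and 77.6 RPKM in WT RT, a difference of 1.55 ± 0.15 in log2 (limma adjusted p = 0.000350). Uqcrb, a small accessory subunit near the ubiquinone site, stood at 375 and 410 RPKM in WT cold and 138 and 163 RPKM in WT RT (1.38 ± 0.17). Neither gene's groups overlapped. Uqcrfs1, the Rieske iron-sulphur protein that hands electrons on to cytochrome c1, rose by 1.06 ± 0.18, and Uqcrc1, the other core protein, by 0.86 ± 0.12. The hinge protein gene Uqcrh (0.90 ± 0.14) and the small subunit genes Uqcr10 (0.98 ± 0.12), Uqcrq (0.94 ± 0.12) and Uqcr11 (0.65 ± 0.13) completed the complex.

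In complex IV, 10 of 15 subunit genes rose and 1, Cox6a2, fell. The largest increases among the 54 genes were those of the heart and muscle isoforms Cox7a1 and Cox8b. Cox7a1 stood at 84.9 and 100 RPKM in WT cold and at 9.31 and 9.75 RPKM in WT RT, an increase by 3.15 ± 0.29 on the log2 scale (limma adjusted p = 0.000286). Cox8b stood at 387 and 312 RPKM in WT cold and at 68.1 and 78.8 RPKM in WT RT (2.23 ± 0.20, limma adjusted p = 0.000248). For both genes the lowest WT cold library was far above the highest WT RT library. Other subunit genes rose by smaller amounts: Cox7b by 1.28 ± 0.13, Cox6c by 1.23 ± 0.22, Cox7c by 1.05 ± 0.12 and Cox5a, which sits on the matrix side, by 0.91 ± 0.14. Cox4i1, the common isoform of the largest nuclear subunit, rose by 1.01 ± 0.14, and Cox6b1, which faces the intermembrane space, by 1.01 ± 0.13. Cox5b, a zinc-binding subunit, did not pass the test (0.21 ± 0.14), nor did Cox4i2, the isoform of subunit 4 known from lung (-0.96 ± 0.44), or Cox6b2, the testis isoform, which had 0 to 9 reads in any input library.

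The liver-type partners behaved unequally. Cox7a2 stood at 155 and 152 RPKM in WT cold and at 67.0 and 79.7 RPKM in WT RT (1.06 ± 0.13), and Cox6a1 at 600 and 594 RPKM in WT cold and 316 and 370 RPKM in WT RT (0.80 ± 0.14). Cox8a stood at 453 and 436 RPKM in WT cold and 394 and 414 RPKM in WT RT, 0.14 ± 0.12 in log2 and short of the threshold (limma adjusted p = 0.344). Under both other scalings it was called higher (0.89 with median-ratio and 0.35 with quantile scaling, limma adjusted p = 0.00242 and 0.0461). Cox6a2 had 0 reads in both WT cold inputs and 10 and 13 reads in the WT RT inputs, at least 6.64-fold lower when the floor is 3 reads over the WT cold group. Its decrease was called (limma adjusted p = 0.0190), and the call was lost with quantile scaling (limma adjusted p = 0.0739) and when any 1 of the WT inputs was left out (limma adjusted p = 0.0621 to 0.103).

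In complex V, 13 of 17 genes rose and 2 fell. Atp5mpl, a small proteolipid of the membrane part, stood at 106 and 76.7 RPKM in WT cold and at 31.6 and 32.0 RPKM in WT RT (1.47 ± 0.17, limma adjusted p = 0.000639). Atp5b stood at 839 and 849 RPKM in WT cold and at 376 and 423 RPKM in WT RT (1.08 ± 0.13). Neither gene's groups overlapped. Of the catalytic head, Atp5a1 (alpha) rose by 0.99 ± 0.12, Atp5c1 (gamma) by 0.57 ± 0.12 and Atp5d (delta) by 0.41 ± 0.12, while Atp5e (epsilon) did not pass (0.26 ± 0.15). The stalk genes Atp5o (1.01 ± 0.18), Atp5pb (1.02 ± 0.14) and Atp5h (0.89 ± 0.17) rose and Atp5j did not pass (0.32 ± 0.13). The membrane subunits Atp5l (1.09 ± 0.12), Atp5k (0.80 ± 0.13), Atp5j2 (0.79 ± 0.15) and Atp5md (0.96 ± 0.15) all rose. Small subunits of this kind are known for joining ATP synthases in pairs or keeping the enzyme stable.

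The ring of subunit c, through which protons pass, comes from 3 genes that encode the same mature protein, and these moved apart. Atp5g3 stood at 166 and 156 RPKM in WT cold and at 110 and 117 RPKM in WT RT (0.50 ± 0.13, limma adjusted p = 0.0136). Atp5g2 stood at 80.4 and 55.0 RPKM in WT cold and at 96.4 and 103 RPKM in WT RT (-0.57 ± 0.19, limma adjusted p = 0.0356). Atp5g1 stood at 3.96 and 3.14 RPKM in WT cold and at 8.54 and 7.65 RPKM in WT RT (-1.0 ± 0.20, limma adjusted p = 0.00534). Each gene's groups were apart, with Atp5g3 higher and the other pair lower in the cold. Atp5g3 made up 66.3% and 72.8% of the summed RPKM of the 3 genes in WT cold and 51.2% and 51.4% in WT RT, and Atp5g2 made up 32.1% and 25.7% in WT cold and 44.9% and 45.3% in WT RT. Relative to the median of all genes the decrease of Atp5g2 was not seen (0.17 with median-ratio scaling), and neither it nor Atp5g1 (-0.38) was called with that scaling. The gene model of Atp5g1 is 4715 bases long, against 731 and 723 bases for the other genes, and the part of this in its low RPKM was not tested. In footprints, set over coding length, Atp5g1 made up 3.47% and 4.32% of the 3 genes in cKO cold and 4.47% and 3.39% in WT cold.

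Of the 9 assembly genes of complex IV, 1 rose and 2 fell on the deposited scale, whereas 5 rose and 0 fell with either other scaling. Cox20, a chaperone of the mitochondrially made subunit COX2, stood at 52.1 and 50.5 RPKM in WT cold and at 29.6 and 30.1 RPKM in WT RT (0.76 ± 0.13, limma adjusted p = 0.00268). Cox17, the copper chaperone, stood at 2.09 and 2.37 RPKM in WT cold and at 4.44 and 4.50 RPKM in WT RT (-0.76 ± 0.20, limma adjusted p = 0.0160). Cox16, another factor of COX2 maturation, stood at 1.38 and 0.783 RPKM in WT cold and at 2.44 and 2.29 RPKM in WT RT (-0.71 ± 0.22, limma adjusted p = 0.0317). Both decreases turned to 0.13 and 0.17 with quantile scaling and were not called with median-ratio scaling. The haem a enzymes Cox10 (0.54 ± 0.20) and Cox15 (0.27 ± 0.18), the copper factors Cox19 (0.52 ± 0.20) and Cox11 (-0.48 ± 0.33), and Cox14 (-0.06 ± 0.16) and Cox18 (-0.18 ± 0.24) did not pass. Of these, Cox10 (1.22 and 1.29), Cox15 (0.94 and 1.05), Cox19 (1.2 and 1.30) and Cox14 (0.63 and 0.68) were called higher with median-ratio and with quantile scaling. Cox7a2l, listed above as a supercomplex factor, stood at 49.9 and 48.5 RPKM in WT cold and at 74.2 and 82.6 RPKM in WT RT (-0.66 ± 0.14, limma adjusted p = 0.00735). This decrease too turned to 0.08 with median-ratio scaling.

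Markers of other cells moved with this comparison, in which 6.52% of all genes tested were higher and 51.2% lower. Summed levels of 12 brown and beige markers were 1855 and 1429 RPKM in WT cold and 117 and 181 RPKM in WT RT, and 11 of the 12 were higher. Those of 14 T and B cell markers were 3.92 and 2.50 RPKM in WT cold, with 4 and 7 at 0, against 990 and 921 RPKM in WT RT with none at 0, and those of 14 macrophage markers were 253 and 258 RPKM in WT cold and 953 and 1039 RPKM in WT RT. The 11 fibroblast and preadipocyte markers summed to 830 and 606 RPKM in WT cold and 2261 and 2229 RPKM in WT RT. Of these 6 were lower, close to the share of all genes. The 13 adipocyte markers summed to 14385 and 15126 RPKM in WT cold and 10030 and 10256 RPKM in WT RT, with 7 higher and 1 lower. The part of these cells in the changes of the 54 genes was not tested. Skeletal muscle also uses Cox7a1 and Cox8b, and 20 of its markers summed to 43.3 and 32.9 RPKM in WT cold, with 11 and 12 at 0. Those at 0 in both were Ckm, Myh7, Tnnt3, Tnni2, Tnnc2, Atp2a1, Pvalb, Actn3 and Mybpc2. In WT RT the 20 markers summed to 447 and 30.7 RPKM, with 1 and 3 at 0. Without WT RT input replicate 1 or 2, 1 of the 54 genes was called lower in WT cold, and without WT cold input replicate 2, 3 were.

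**Figure D2:**
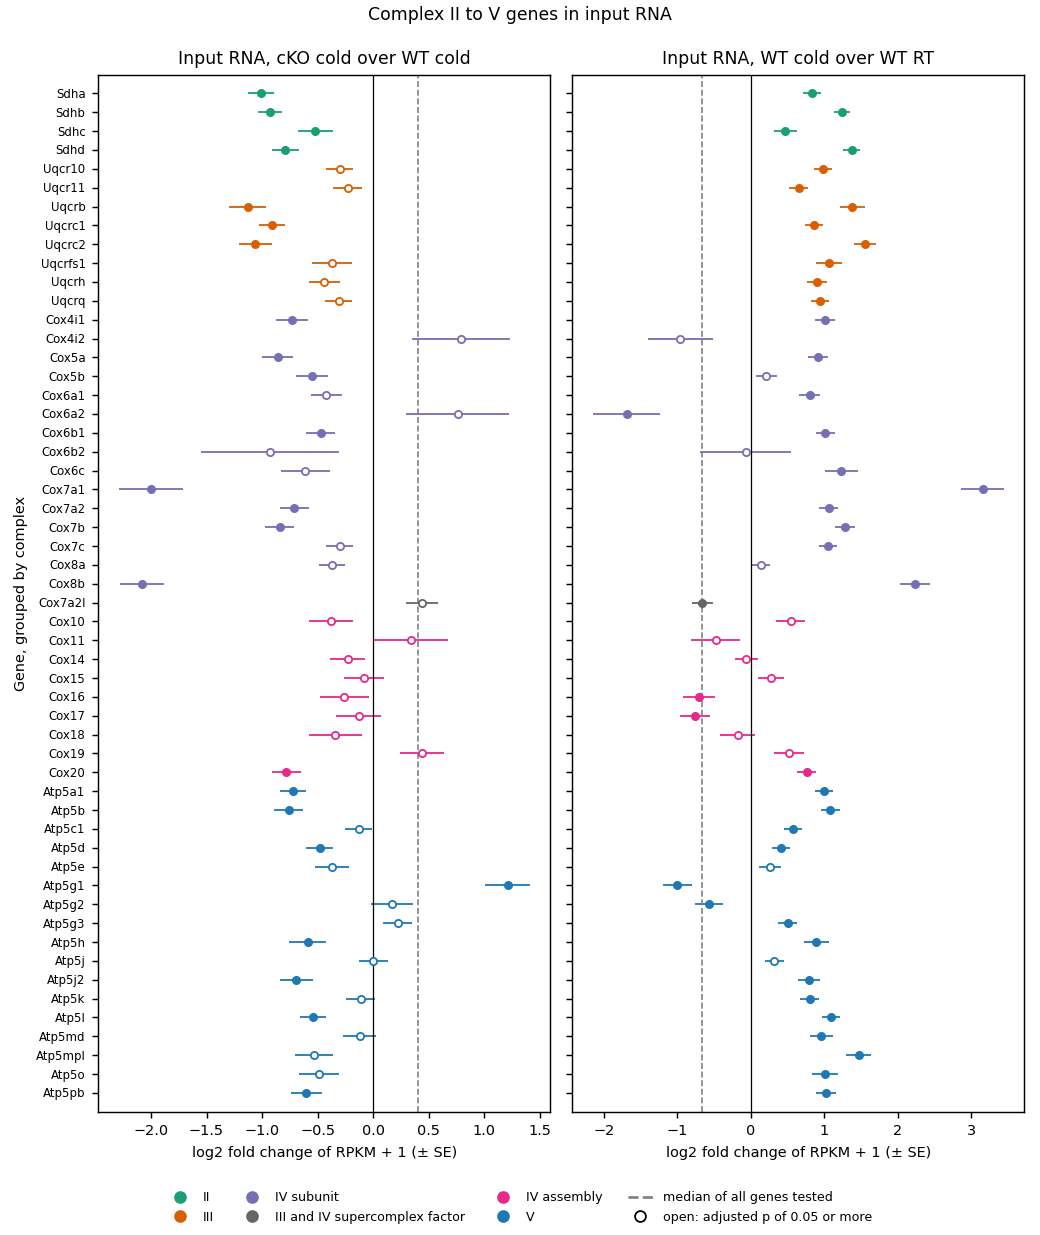
Log2 fold changes of RPKM + 1 in input RNA (± SE, n = 2 libraries per group) of the 54 genes, grouped and coloured by complex, for cKO cold over WT cold (left) and WT cold over WT RT (right). Filled points passed the limma test, and dashed lines mark the medians of all genes tested (0.40 and -0.67); 36 genes rose in WT cold over WT RT and 23 lower in cKO cold than in WT cold, with Cox7a1 and Cox8b farthest out in both panels.

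In the libraries labelled cKO cold many of the same complexes' genes stood below their WT cold levels, and this comparison asks what the loss of METTL3 in adipocytes changed in the cold. Of the 54 genes, 23 were lower and 1 higher in cKO cold than in WT cold, where 2.92% of the 12667 genes tested were lower and 23.6% higher. The median of the 54 genes was -0.45, against 0.40 for all genes. With median-ratio scaling, which put the median of all genes at 0.02, 39 were lower and 1 higher (6.73% and 5.97% of all genes), and with quantile scaling 27 were lower and 0 higher (5.04% and 5.94%). This comparison shares its WT cold libraries with the comparison of WT cold and WT RT, so a gene that WT cold libraries happened to hold high would be high in one and low in the other.

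All 4 genes of complex II fell. Sdha stood at 121 and 116 RPKM in cKO cold and at 243 and 236 RPKM in WT cold (-1.01 ± 0.12, limma adjusted p = 0.00511). Sdhb stood at 104 and 111 RPKM in cKO cold and at 199 and 213 RPKM in WT cold (-0.93 ± 0.11, limma adjusted p = 0.00534). The replicates lay close together and the groups far apart. Sdhd (-0.79 ± 0.12) and Sdhc (-0.52 ± 0.16) followed. In complex III, 3 of 8 genes fell, the core genes and Uqcrb. Uqcrb stood at 156 and 204 RPKM in cKO cold and at 375 and 410 RPKM in WT cold (-1.13 ± 0.17, limma adjusted p = 0.00777), and Uqcrc2 at 94.9 and 107 RPKM in cKO cold and 230 and 194 RPKM in WT cold (-1.06 ± 0.15, limma adjusted p = 0.00692). Uqcrc1 fell by 0.91 on the log2 scale. The other 5 genes of the complex had log2 fold changes of -0.23 to -0.44, with Uqcrh nearest to the threshold (-0.44 ± 0.14, limma adjusted p = 0.0534).

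In complex IV, 8 of 15 subunit genes fell and none was called higher. Cox8b stood at 68.9 and 96.3 RPKM in cKO cold and at 387 and 312 RPKM in WT cold, or -2.08 ± 0.20 in log2 (limma adjusted p = 0.00369). Cox7a1 stood at 16 and 31.2 RPKM in cKO cold and at 84.9 and 100 RPKM in WT cold (-2.00 ± 0.29, limma adjusted p = 0.00731). These were the 2 largest decreases of the 54 genes, and no cKO cold library reached any WT cold library. Cox7a2 stood at 91.5 and 96.2 RPKM in cKO cold and 155 and 152 RPKM in WT cold (-0.71 ± 0.13, limma adjusted p = 0.0121). Cox5a (-0.86 ± 0.14), Cox7b (-0.84 ± 0.13), Cox4i1 (-0.73 ± 0.14), Cox5b (-0.55 ± 0.14) and Cox6b1 (-0.47 ± 0.13) were also called. Cox8a stood at 351 and 337 RPKM in cKO cold and 453 and 436 RPKM in WT cold (-0.37 ± 0.12, limma adjusted p = 0.0566), and Cox6a1 at 424 and 467 RPKM in cKO cold and 600 and 594 RPKM in WT cold (-0.42 ± 0.14, limma adjusted p = 0.0580). Their groups did not overlap, the test was narrowly missed, and both passed with median-ratio scaling (-0.86 and -0.92). Cox6a2 had 0 and 5 reads in cKO cold and 0 in both WT cold libraries, and it was not called.

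In complex V, 7 of 17 genes fell and Atp5g1 rose. The decreases were those of Atp5b, which stood at 493 and 502 RPKM in cKO cold and at 839 and 849 RPKM in WT cold (-0.76 ± 0.13, limma adjusted p = 0.00991), Atp5a1 (-0.72 ± 0.12), Atp5j2 (-0.69 ± 0.15), Atp5pb (-0.60 ± 0.14), Atp5h (-0.59 ± 0.17), Atp5l (-0.54 ± 0.12) and Atp5d (-0.48 ± 0.12). They span the head, the stalk and the membrane part. Atp5g1 stood at 8.74 and 10.2 RPKM in cKO cold and at 3.96 and 3.14 RPKM in WT cold (1.21 ± 0.20, limma adjusted p = 0.00980), and with quantile scaling it was no longer called (0.70, limma adjusted p = 0.0549). The other genes of the ring, Atp5g2 (0.17 ± 0.19) and Atp5g3 (0.22 ± 0.13), were not called, and Atp5g3 made up 66.7% and 71.1% of the 3 genes' summed RPKM in cKO cold, within the WT cold values of 66.3% and 72.8%. The remaining 7 genes had log2 fold changes of -0.53 to -0.00. Of the assembly genes Cox20 alone was called, at 27.8 and 31.1 RPKM in cKO cold and 52.1 and 50.5 RPKM in WT cold (-0.78 ± 0.13, limma adjusted p = 0.00935), and Cox7a2l was not called (0.44 ± 0.14, limma adjusted p = 0.0579).

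Macrophage and fibroblast markers moved with this comparison, in which 23.6% of all genes tested were higher and 2.92% lower. The 14 macrophage markers summed to 2022 and 987 RPKM in cKO cold and to 253 and 258 RPKM in WT cold, and 12 of 13 tested were higher. The 11 fibroblast and preadipocyte markers summed to 3148 and 1568 RPKM in cKO cold and to 830 and 606 RPKM in WT cold, and 10 were higher. The 13 adipocyte markers summed to 11514 and 13510 RPKM in cKO cold and to 14385 and 15126 RPKM in WT cold, with 2 higher and 3 lower, and the 12 brown and beige markers to 222 and 165 RPKM in cKO cold and 1855 and 1429 RPKM in WT cold, with 9 lower. The 20 muscle markers summed to 33.5 and 289 RPKM in cKO cold, and the library with 289 RPKM held more Cox7a1 and Cox8b than the other cKO cold library. In WT RT, the library with 447 RPKM of muscle markers held less of both (9.31 RPKM of Cox7a1 and 68.1 RPKM of Cox8b) than the library with 30.7 RPKM (9.75 and 78.8 RPKM). The part of these cells in the decreases was not tested. Without cKO cold input replicate 1, the library with most macrophage and fibroblast signal, 14 of the 54 genes were called lower, and without WT RT input replicate 2, which enters this fit through the shared spread, 15 were.

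Set against WT RT, the libraries labelled cKO cold still held some of these genes higher, by small amounts. Of the 54 genes 17 were higher and 2 lower in cKO cold than in WT RT, where 8.38% of all genes tested were higher and 24.7% lower, and the median of the 54 was 0.29 against -0.24 for all. The higher genes were 5 of complex III, 6 of complex V, 4 subunit genes of complex IV, Sdhd and Cox19. Cox7a1 stood at 16 and 31.2 RPKM in cKO cold and at 9.31 and 9.75 RPKM in WT RT (1.15 ± 0.29, limma adjusted p = 0.0232), and Cox8b at 68.9 and 96.3 RPKM in cKO cold and 68.1 and 78.8 RPKM in WT RT (0.15 ± 0.20, limma adjusted p = 0.582). The Cox7a1 groups were apart and the Cox8b groups overlapped. Without cKO cold input replicate 2, which held most muscle signal, Cox7a1 was at 0.69 (limma adjusted p = 0.0400) and Cox8b at -0.09 (limma adjusted p = 0.750). Cox19 stood at 13.9 and 16.5 RPKM in cKO cold and at 7.08 and 7.52 RPKM in WT RT (0.96 ± 0.20), and Atp5mpl at 62.6 and 61.2 RPKM in cKO cold and 31.6 and 32.0 RPKM in WT RT (0.94 ± 0.17). The lower genes were Cox16, at 0.663 and 0.767 RPKM in cKO cold and 2.44 and 2.29 RPKM in WT RT (-0.97 ± 0.22), and Cox17, at 2.10 and 1.81 RPKM in cKO cold and 4.44 and 4.50 RPKM in WT RT (-0.89 ± 0.20). When either WT RT input library was left out, none of the 54 genes was called in this comparison, and with median-ratio scaling 27 were higher and 2 lower (13.3% and 15.6% of all genes). The 14 T and B cell markers summed to 23.5 and 13.1 RPKM in cKO cold and 990 and 921 RPKM in WT RT, all lower, and the 14 macrophage markers to 2022 and 987 RPKM in cKO cold and 953 and 1039 RPKM in WT RT, with 7 of 13 tested higher. The part of these cells was not tested. Genotype, temperature and code numbering all differ here and cannot be told apart.

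The isoform composition of complex IV transcripts differed between the 3 conditions. As a share of the summed RPKM of Cox7a1 and Cox7a2, Cox7a1 made up 14.9% and 24.5% in cKO cold, 35.4% and 39.7% in WT cold, and 12.2% and 10.9% in WT RT. As a share of Cox8b and Cox8a, Cox8b made up 16.4% and 22.2% in cKO cold, 46.1% and 41.8% in WT cold, and 14.7% and 16% in WT RT. In both pairs the WT cold libraries were the highest, and in both every cKO cold library was above every WT RT library, by less than the spread within cKO cold. The cKO cold library with the higher shares was replicate 2, with 289 RPKM of muscle markers against 33.5 RPKM in replicate 1. In WT RT, replicate 1 with 447 RPKM of these markers had the higher Cox7a1 share and the lower Cox8b share. The part of muscle in these shares was not tested. Cox6a2 made up at most 0.693% of its pair in any input library. As mean log2 ratios ± SD, Cox7a1 over Cox7a2 was -0.73 ± 0.19 in WT cold and -2.81 ± 0.13 in WT RT, and Cox8b over Cox8a was -0.35 ± 0.18 in WT cold and -2.45 ± 0.10 in WT RT, a difference of 2.09 for each pair. For cKO cold the means were -2.02 ± 0.60 for Cox7a1 over Cox7a2 and -2.06 ± 0.38 for Cox8b over Cox8a, differences of -1.29 and -1.71 from WT cold, with ranges of -1.71 to -0.86 and -1.98 to -1.44 when 1 library was left out. An exact two-sided permutation test gave p = 0.333 for each of these, the smallest that 2 libraries against 2 can give. A share of summed RPKM does not depend on how that library was scaled. The log2 ratios are those of RPKM + 1, so they do depend on it where a gene is low. Both show unequal change of the 2 genes, not that either stayed the same.

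**Figure D3:**
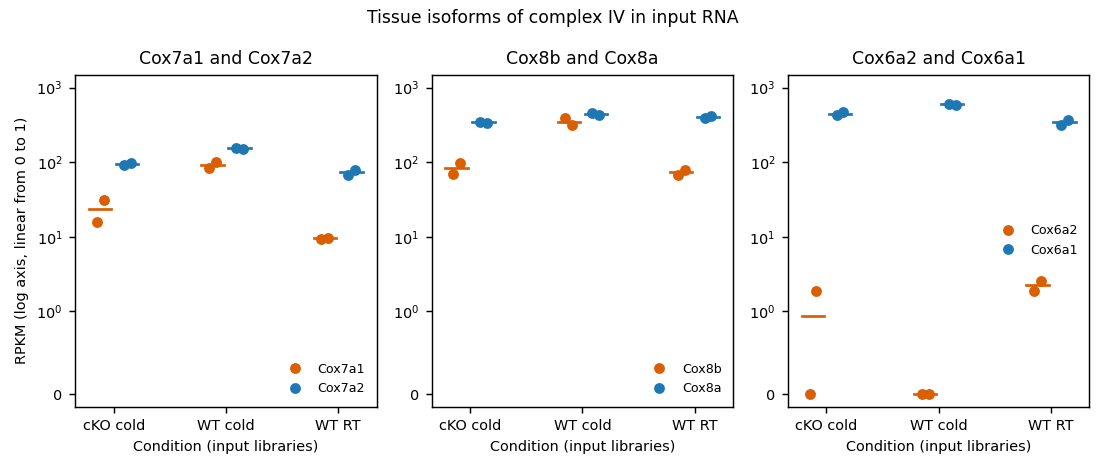
Input RPKM of the heart and muscle isoforms (orange) and the common or liver-type isoforms (blue) of subunits 7a, 8 and 6a of complex IV in cKO cold, WT cold and WT RT; points are libraries, bars are means of 2, and the axis is logarithmic above 1 and linear below. Cox7a1 and Cox8b stand highest in WT cold (84.9 and 100, and 387 and 312 RPKM), and Cox6a2 is at 0 in WT cold.

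Over the 6 input libraries, the 5 genes whose log2 level followed that of Cox8b most closely among 12667 genes were Phyh, an enzyme of fatty acid alpha-oxidation (Pearson's r = 0.9950), Cox5a (0.9948), Cox20 (0.9942), mt-Nd5, a subunit of complex I made in mitochondria (0.9940), and Eci1, an enzyme of fatty acid oxidation (0.9925). These coefficients describe 3 conditions of 2 libraries each, in which any gene high in WT cold alone scores high.

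Transcripts of these genes were poor in the anti-m6A precipitate. Relative to input, 37 of the 54 genes were lower and 3 higher in cKO cold, 36 lower and 4 higher in WT cold, and 39 lower and 2 higher in WT RT. Of all 13062 genes tested, 35.2% were lower and 11.4% higher in cKO cold, 25.6% and 13.7% in WT cold, and 34.6% and 16% in WT RT. The medians of the 54 genes were -1.04, -0.84 and -1.05 in cKO cold, WT cold and WT RT, against -0.30, -0.11 and -0.25 for all genes. All 4 genes of complex II were lower in each condition, with medians of -1.50, -1.36 and -1.58, and of complex V 13, 13 and 14 of 17 were, with medians of -1.11, -0.98 and -1.22. A value below 0 means that a transcript made up less of the precipitate than of the input, not that it carries no m6A.

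Cox6c, a small subunit of complex IV, was the poorest or close to it in each condition. It stood at 22.5 and 23.5 RPKM in the cKO cold precipitates against 159 and 253 RPKM in the inputs, at 29.2 and 35.4 against 319 and 294 RPKM in WT cold, and at 9.70 and 13.3 against 124 and 137 RPKM in WT RT. The log2 ratios of m6A over input were -3.07 ± 0.21, -3.21 ± 0.21 and -3.40 ± 0.21 (limma adjusted p = 6.50e-06, 7.96e-06 and 3.43e-06). Every precipitate was far below every input of its condition. Uqcrc2 stood at 15.8 and 15.8 RPKM in the cKO cold precipitates, 42.9 and 40.5 RPKM in WT cold and 10.1 and 14.1 RPKM in WT RT, with log2 ratios of -2.60 ± 0.16, -2.31 ± 0.16 and -2.48 ± 0.16. Cox7a2 stood at 8.69 and 14.0 RPKM in the cKO cold precipitates, 20.0 and 24.1 RPKM in WT cold and 11.7 and 19.9 RPKM in WT RT, with log2 ratios of -2.97 ± 0.25, -2.75 ± 0.25 and -2.19 ± 0.25. For both genes every precipitate was below every input of its condition. Uqcrfs1 had the lowest ratio of all in cKO cold, with 10.1 and 10.5 RPKM in the precipitates against 97.7 and 99.4 RPKM in the inputs (-3.14 ± 0.18), and in WT cold it had 34.9 and 32.9 RPKM in the precipitates against 150 and 108 RPKM in the inputs (-1.88 ± 0.18). Sdhd had 23.8 and 24.3 RPKM in the WT cold precipitates against 126 and 115 RPKM in the inputs (-2.28 ± 0.17), and Cox7c, another small subunit of complex IV, at 18.4 and 25.4 RPKM in the WT RT precipitates against 94.9 and 95.8 RPKM in the inputs (-2.09 ± 0.16).

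A few genes ran the other way. Atp5k, subunit e of the ATP synthase, stood at 137 and 159 RPKM in the cKO cold precipitates against 78.9 and 69.9 RPKM in the inputs, and its log2 ratio was 0.98 ± 0.13 there, 1.26 ± 0.13 in WT cold and 0.89 ± 0.13 in WT RT. It was called higher in all 3 conditions. Uqcrh was called in cKO cold (0.79 ± 0.15) and WT cold (1.05 ± 0.15), Cox5b in cKO cold (0.51 ± 0.17) and WT cold (0.78 ± 0.17), and Cox19 in WT cold (0.85 ± 0.21) and WT RT (0.74 ± 0.21).

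The members of the Cox8b and Cox8a pair and of the Cox7a1 and Cox7a2 pair also differed in the precipitate. Cox8b was at -0.08 ± 0.18 in cKO cold, 0.08 ± 0.18 in WT cold and -0.21 ± 0.18 in WT RT, none called, whereas Cox8a was at -2.30 ± 0.15, -1.84 ± 0.15 and -1.94 ± 0.15, all called. Cox7a1 was at -0.83 ± 0.31, -0.62 ± 0.31 and -0.92 ± 0.31, called in cKO cold and WT RT. Cox8b therefore made up 76.8% and 72.7% of the Cox8b and Cox8a level in the WT cold precipitates, against 46.1% and 41.8% in the inputs, and Cox7a1 made up 75.7% and 70.3% of its pair, against 35.4% and 39.7%. The log2 ratio of Cox8b over Cox8a was higher in the precipitate by 2.22 in cKO cold, 1.92 in WT cold and 1.72 in WT RT, and that of Cox7a1 over Cox7a2 by 2.15, 2.13 and 1.27, in both libraries of each condition (exact permutation p = 0.333 each, the smallest possible). The liver-type Cox6a1 did not share the low ratios of Cox8a and Cox7a2. Its precipitates stood at 394 and 585 RPKM in cKO cold, 711 and 747 RPKM in WT cold and 398 and 493 RPKM in WT RT. Its inputs stood at 424 and 467 RPKM in cKO cold, 600 and 594 RPKM in WT cold and 316 and 370 RPKM in WT RT. Its partner Cox6a2 had 0 reads in both WT cold precipitates and at most 19 in any other.

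The genes of the c ring differed as well. Atp5g3 was at 0.19 ± 0.16 in cKO cold, 0.04 ± 0.16 in WT cold and 0.20 ± 0.16 in WT RT, none called, while Atp5g2 was at -1.77 ± 0.18, -1.50 ± 0.18 and -1.94 ± 0.18, all called lower. Atp5g3 therefore made up 88.9% and 90.5% of the summed RPKM of the 3 genes in the cKO cold precipitates, 87.3% and 86.8% in WT cold and 82.7% and 81.6% in WT RT, above every input library.

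The precipitate was also compared by length. Of the 54 gene models 25 are at most 800 bases long, and their median log2 ratio was -0.83 in cKO cold, -0.68 in WT cold and -0.82 in WT RT, against -0.59, -0.45 and -0.61 for all 465 genes of that length. For the 13 models of over 800 to 1500 bases it was -1.26, -1.17 and -1.22, against -0.45, -0.23 and -0.41. Across the 54 genes, which share libraries, the correlation of the log2 ratio with log2 length was -0.13, -0.06 and -0.14.

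**Figure D4:**
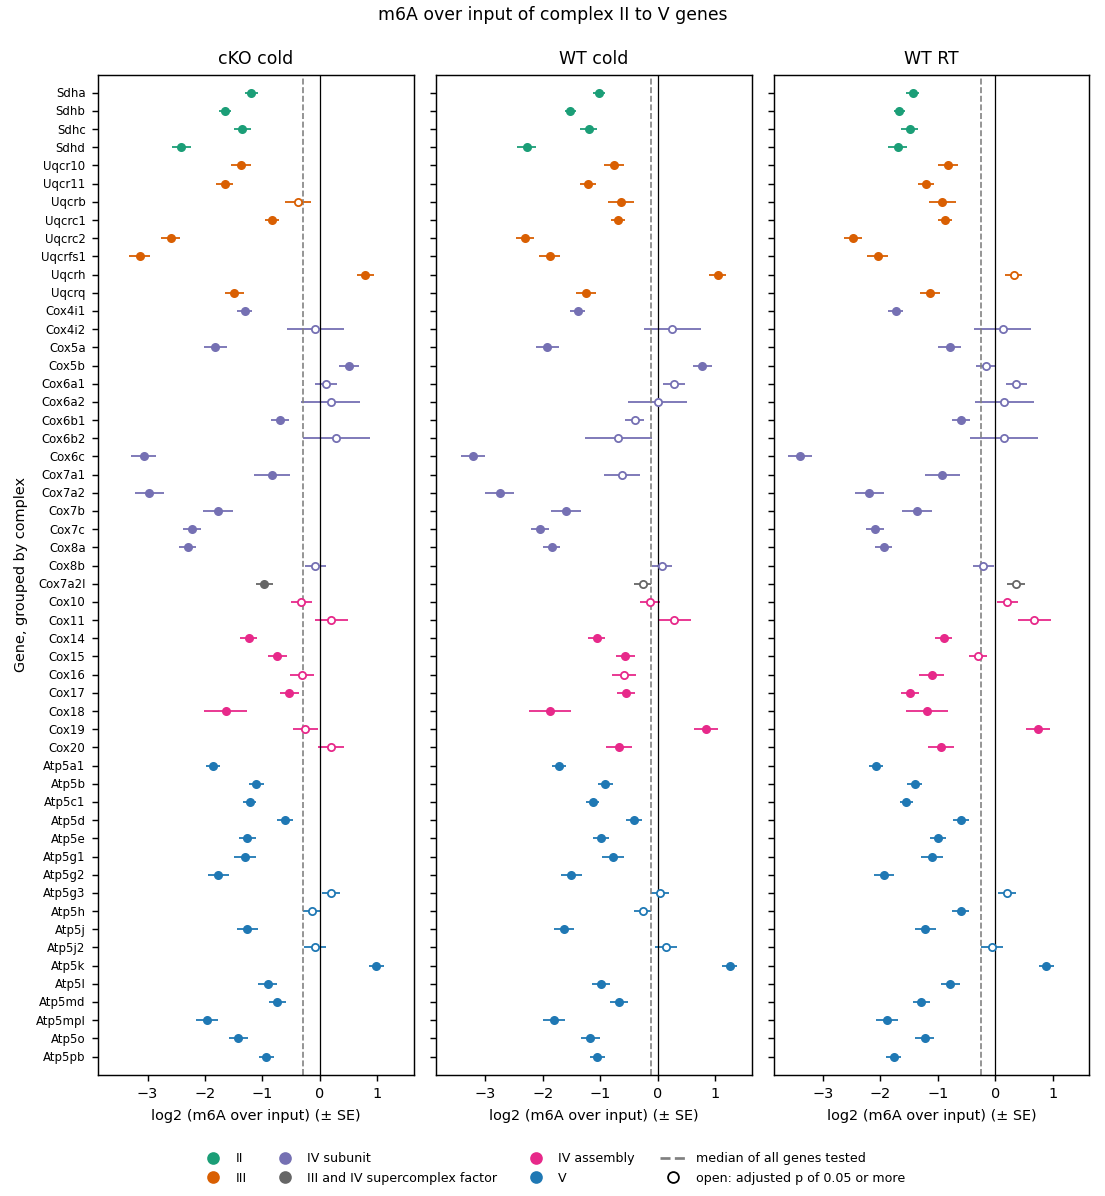
Log2 ratio of m6A precipitate over input (RPKM + 1, ± SE, n = 2 libraries each) of the 54 genes in cKO cold, WT cold and WT RT, coloured by complex. Filled points passed the limma test and dashed lines mark the medians of all genes tested (-0.30, -0.11 and -0.25); most points lie to the left, while Atp5k lies to the right in each panel (0.98, 1.26 and 0.89).

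Between conditions, no change of m6A over input passed the test for these genes. In the libraries labelled cKO cold against WT cold none of the 54 genes was called, as was none of all genes (0% in either direction). An unadjusted p under 0.05 in limma was found for 6 of the 54 genes and for 1311 of all 13062 genes tested. The median change was -0.18 for the 54 genes and -0.14 for all. The smallest p-values were those of Uqcrfs1 (-1.26 ± 0.25, limma adjusted p = 0.133) and Cox19 (-1.09 ± 0.30, limma adjusted p = 0.240). Cox19 stood at 14.0 and 11.3 RPKM in the cKO cold precipitates and 22.0 and 18.9 RPKM in the WT cold precipitates, while its inputs stood at 13.9 and 16.5 RPKM in cKO cold and 12.7 and 9.31 RPKM in WT cold. With input and m6A libraries of the same number paired as blocks, Uqcrfs1, Cox19 and Cox7a2l were lower (-1.26 ± 0.15, -1.09 ± 0.23 and -0.71 ± 0.12, limma adjusted p = 0.0110, 0.0479 and 0.0241), where 3.04% of all genes were lower and 0.0612% higher. Cox7a2l was at -0.97 ± 0.15 for m6A over input in cKO cold, -0.26 ± 0.15 in WT cold and 0.36 ± 0.15 in WT RT.

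Between WT cold and WT RT none of the 54 genes was called either, where 0.0230% of all genes tested were higher and 0.0383% lower. An unadjusted p under 0.05 in limma was found for 11 of the 54 and for 1486 of all 13062 genes tested. The median change was 0.16 for the 54 genes and 0.11 for all. The smallest p-values were those of Cox5a (-1.13 ± 0.28) and Cox17 (0.93 ± 0.23), both with limma adjusted p = 0.191. Cox5a had 56.4 and 44.1 RPKM in the WT cold precipitates and 47.9 and 71.4 RPKM in the WT RT precipitates, while its inputs stood at 194 and 189 RPKM in WT cold and 94.7 and 109 RPKM in WT RT. Cox17 had 1.2 and 1.22 RPKM in the WT cold precipitates and 0.994 and 0.943 RPKM in the WT RT precipitates, against inputs of 2.09 and 2.37 RPKM in WT cold and 4.44 and 4.50 RPKM in WT RT. Both ratios moved with an input that changed more than the precipitate. Paired as blocks, Uqcrh (0.72 ± 0.09), Cox5b (0.93 ± 0.16), Atp5pb (0.72 ± 0.14) and Atp5b (0.49 ± 0.10) were higher, and Cox5a (-1.13 ± 0.15) and Cox7a2l (-0.62 ± 0.12) lower, with limma adjusted p of 0.0226 to 0.0498 and 1.70% and 0.367% of all genes called.

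On ribosomes, too, some of these genes fell in the libraries labelled cKO cold, and this comparison asks whether the change in RNA reached translation. Of the 54 genes 9 had fewer footprints in cKO cold than in WT cold and none more, where 1.54% of the 12763 genes tested were lower and 5.61% higher. The median was -0.59 for the 54 genes and 0.42 for all. With median-ratio scaling 21 were lower and 0 higher (2.88% and 1.05% of all genes). With quantile scaling 8 were lower and 0 higher, against 287 and 137 of the 12763 genes tested. Footprint values are set over coding length, so they are not compared with input values of the same gene.

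Cox7a1 stood at 165 and 136 RPKM in cKO cold footprints and at 1232 and 1109 RPKM in WT cold footprints, or -2.95 ± 0.31 in log2 (limma adjusted p = 0.00572). Cox8b stood at 136 and 274 RPKM in cKO cold and at 970 and 1722 RPKM in WT cold (-2.74 ± 0.39, limma adjusted p = 0.0119). These were the largest decreases of the 54 genes, and the groups were far apart for both. Uqcrc2 stood at 293 and 361 RPKM in cKO cold and at 986 and 776 RPKM in WT cold (-1.42 ± 0.24, limma adjusted p = 0.020), and Sdhb at 313 and 375 RPKM in cKO cold and 838 and 739 RPKM in WT cold (-1.20 ± 0.22, limma adjusted p = 0.0253). The other called genes were Cox7a2 (-1.19 ± 0.24), Cox6a1 (-1.14 ± 0.24), Sdha (-1.04 ± 0.24), Uqcrc1 (-1.04 ± 0.21) and Uqcr11 (-0.95 ± 0.23). No gene of complex V and no assembly gene was called on the deposited scale or with quantile scaling, under which the values of complex V ran from -0.91 to 0.89. With median-ratio scaling 6 of 17 genes of complex V were lower (Atp5a1, Atp5b, Atp5d, Atp5j2, Atp5l and Atp5mpl, -1.10 to -1.48), as was the assembly gene Cox10 (-1.35). Atp5b stood at 1790 and 1783 RPKM in cKO cold and at 4075 and 3074 RPKM in WT cold (-0.99 ± 0.27, limma adjusted p = 0.0614), while all 3 genes of the ring had positive values that were not called (Atp5g1 0.66 ± 0.23, Atp5g2 0.77 ± 0.44, Atp5g3 0.69 ± 0.25), which were 0.18, 0.28 and 0.20 with median-ratio scaling.

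In footprints, too, the isoforms were split. Cox7a1 made up 14.0% and 9.22% of its pair in cKO cold and 33.0% and 28.3% in WT cold, and Cox8b 5.36% and 10.5% in cKO cold and 21.3% and 41.0% in WT cold. The mean log2 ratios differed by -1.77 and -2.41, and no cKO cold library overlapped a WT cold library (exact permutation p = 0.333 each, the smallest possible). Cox17 has a gene model of 3690 bases and an input level near 2 RPKM in the cold. It stood at 380 and 36.1 RPKM in cKO cold footprints and at 383 and 510 RPKM in WT cold footprints. Here 1 cKO cold library carried the difference (-1.90 ± 0.83, not called).

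The footprint counts depended on single libraries. Without WT cold footprint replicate 2, 1 of the 54 genes was called lower, without cKO cold footprint replicate 1, 2, and without 1 input library, which enters through the shared spread, 2 or 3. Cox7a1 was called each time, and the Cox8b call was lost without WT cold footprint replicate 2 or cKO cold footprint replicate 1 (limma adjusted p = 0.0616 and 0.0519). Macrophage markers summed to 10639 and 6066 RPKM in cKO cold footprints and to 3710 and 4478 RPKM in WT cold footprints, and brown and beige markers to 431 and 511 RPKM in cKO cold and 8888 and 5122 RPKM in WT cold. T and B cell markers summed to 1431 and 477 RPKM in cKO cold footprints and to 645 and 467 RPKM in WT cold footprints. Muscle markers summed to 647 and 52.7 RPKM in cKO cold footprints, with 2 and 9 at 0, and to 59.4 and 52.7 RPKM in WT cold footprints, with 9 and 14 at 0. The cKO cold footprint library with 647 RPKM held more Cox7a1 (165 against 136 RPKM) and less Cox8b (136 against 274 RPKM) than the other. The part of these cells was not tested.

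Footprints over input was not called changed for any of the 54 genes or for any other gene (0% in either direction). It measures translation per transcript only where both kinds of library hold the same mix of cells, which was not tested. T and B cell markers summed to 645 and 467 RPKM in WT cold footprints and to 3.92 and 2.50 RPKM in WT cold inputs. Adipocyte markers summed to 57368 and 76582 RPKM in WT cold footprints and to 14385 and 15126 RPKM in WT cold inputs. Of the 54 genes 2 had an unadjusted p under 0.05 in limma, Cox20 (0.71 ± 0.28) and Uqcr11 (-0.72 ± 0.32), each with limma adjusted p = 1.00. Among all 12763 genes tested, 459 had an unadjusted p under 0.05 in limma. Cox20 stood at 291 and 307 RPKM in cKO cold footprints and 319 and 311 RPKM in WT cold footprints, while its input was lower in cKO cold. The median was -0.17 for the 54 genes and -0.00 for all, and the values of Cox7a1 (-0.96 ± 0.43) and Cox8b (-0.66 ± 0.56) had wide errors.

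**Figure D5:**
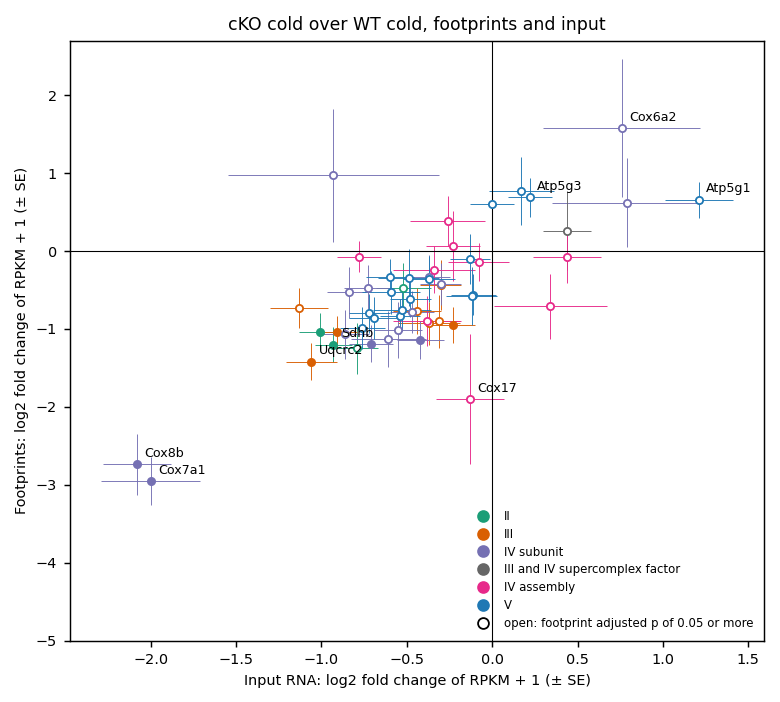
Log2 fold change of RPKM + 1 in footprints (vertical) against input RNA (horizontal) for cKO cold over WT cold, each with its SE (n = 2 libraries per group), for the 54 genes coloured by complex. Filled points were called in footprints; Cox7a1 (-2.00 in input, -2.95 in footprints) and Cox8b (-2.08 and -2.74) stand apart at the lower left, and Atp5g1 (1.21 and 0.66) lies at the upper right.

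Partners of these complexes outside the name rule moved in part with them. The 3 such subunit genes measured were Cyc1, the cytochrome c1 of complex III, Ndufa4, a late-joining subunit of complex IV, and Atpif1, the inhibitor of the ATP synthase. Cyc1 rose by 0.94 ± 0.15 and Ndufa4 by 1.04 ± 0.20 in WT cold over WT RT, and both fell in cKO cold against WT cold (-0.87 ± 0.15 and -0.69 ± 0.20). Atpif1 ran the other way: its log2 fold change was -1.11 ± 0.16 in WT cold over WT RT, 1.34 ± 0.16 in cKO cold over WT cold, and 1.88 ± 0.29 in cKO cold footprints over WT cold footprints (limma adjusted p = 0.00136, 0.00509 and 0.0156). Cytochrome c itself (Cycs), the carrier between complexes III and IV, rose by 2.73 ± 0.28 in WT cold over WT RT and fell in cKO cold against WT cold (-1.40 ± 0.28, limma adjusted p = 0.0155).

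Of 6 mitochondrially encoded subunit mRNAs of complexes III to V, 4 were in the matrix and were tested. All 4 rose in WT cold over WT RT (all genes 6.52% higher), with a median of 1.15. All 4 fell in cKO cold against WT cold (all genes 2.92% lower), with a median of -1.28. They included mt-Atp6 of the ATP synthase (1.26 ± 0.22 and -1.34 ± 0.22). Of 28 assembly factors outside the name rule, 5 rose and 0 fell in WT cold over WT RT (all genes 6.52% and 51.2%), among them Higd1a (1.39 ± 0.18), a factor of complex IV and its supercomplexes, Atpaf2 (1.11 ± 0.13), which assembles the head of the ATP synthase, and Coa5 (0.86 ± 0.13). In cKO cold against WT cold 1 was higher and 1 lower (all genes 23.6% and 2.92%), Coa3 (0.49 ± 0.15) and Atpaf2 (-0.53 ± 0.13). Of 11 regulators of mitochondrial genes 4 rose and 4 fell in WT cold over WT RT (all genes 6.52% and 51.2%), with the coactivator Ppargc1a at 1.66 ± 0.26, the mitochondrial transcription factor Tfb2m at 1.04 ± 0.15 and the coactivator-related Pprc1 at -1.44 ± 0.18. In cKO cold against WT cold 1 rose and 4 fell (all genes 23.6% and 2.92%), among them Tfb2m (-0.81 ± 0.15), the oestrogen-related receptor Esrrg (-1.16 ± 0.22) and the coactivator Ppargc1b (-1.74 ± 0.34).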

How the data were processed

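Values are the RPKM matrix the authors deposited, with 1 column for each of 16 libraries (6 input, 6 m6A, 4 footprint), and 0 value columns were left unused. Reads were aligned with HISAT2 to mm10, per the submitters' processing notes; its version, the counting and the annotation are not given in the sources used here. Input and m6A values divide by whole lengths (99.8% of 5045 genes checked). Footprint values do so for 97.8% of 4277, and 99.5% of those lengths are multiples of 3, as for coding length. Whole reads were recovered for 100.0% of the genes (tolerance 0.001 read), which gave the depths; for footprints they are lower limits. Precision is limited by these depths.

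Log2(RPKM + 1) was fitted with limma 3.58.1 in R 4.3.3 (lmFit, eBayes with trend, two-sided), on genes at 1 RPKM or more in at least 2 libraries, with adjustment over all genes tested. The fits held 6 input libraries, 12 input and m6A libraries, or 8 cold input and footprint libraries, and changes of ratios were interaction terms. Count models were not used because the values are RPKM, and the fit was checked on simulated data. Isoform ratios were tested by exact permutation. Python 3.11.15, numpy 2.4.6, pandas 2.3.3 and matplotlib 3.10.9 served the rest. Promoters came from RefSeq GRCm38.p6.

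Alternatives were a pseudocount of 0.1, no filter, a filter of 5 RPKM, median-ratio and quantile scaling, each library left out, replicate blocks and all 16 libraries in 1 fit. Same-numbered libraries of a condition deviated together over 8121 genes (correlations of 0.334 to 0.671 between input and m6A, and 0.339 and 0.345 between input and footprints), whereas those of different conditions did not (-0.079 to 0.096). The pairing comes from these values and not from the labels. Values given in every library are those of the isoform genes, the 6 called genes with the largest change in each direction in the input comparisons that include WT cold, 4 in each other comparison (with none called, the 2 with the smallest p) and the most abundant gene of each complex; other genes were added for their role. The genes and lists were chosen with earlier results of these data known.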

Additional observations from a re-analysis of the deposited data

How the results depend on the processing

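With median-ratio scaling, 1 gene fell in WT cold relative to WT RT, 39 were lower in cKO cold than in WT cold, 27 higher in cKO cold than in WT RT, and 21 lower in cKO cold footprints. With quantile scaling, 0 were lower in WT cold, 0 higher in cKO cold than in WT cold, 0 lower in cKO cold than in WT RT, 4 higher in m6A over input in WT RT, and 1 changed upward in m6A over input in the cold. A filter of 5 RPKM, which tests fewer genes, gave 3 lower in WT cold and 0 lower in cKO cold than in WT RT, and no filter gave 5 lower in footprints. All 16 libraries in 1 fit gave 2 lower in WT cold, 13 lower in cKO cold than in WT cold, 8 higher and 1 lower in cKO cold than in WT RT, 1 higher in m6A over input in WT RT, and 2 higher and 25 lower in footprints. Apart from the filter, the cause was not tested. Sign changes were listed only for the isoform genes and the genes picked by largest change or smallest p in a comparison. In WT cold over WT RT these were Cox17 (0.13) and Cox16 (0.17) with quantile scaling and Cox7a2l (0.08) and Atp5g2 (0.17) with median-ratio scaling. In cKO cold over WT RT they were Cox8a (0.02) with median-ratio scaling and Cox8b (-0.09 to 0.39 with 1 library left out, lowest without cKO cold input replicate 2). Genes outside this set changed sign too. Of the 9 assembly genes, 4 were above 0 in WT cold over WT RT on the deposited scale and 9 with quantile scaling. The tally of single-gene values in the next paragraph covers the listed set only.

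With input and m6A libraries paired as replicate blocks, 5 genes were higher in m6A over input in WT RT, 4 changed upward and 2 downward in the cold, and 3 changed downward in cKO cold; the block moved no other count of m6A or of footprints over input by over 1.5 times. With the number alone as a block, which pairs libraries of different conditions that did not deviate together, the counts were 36 higher and 7 lower in WT cold, 1 and 23 in cKO cold against WT cold, 15 and 2 in cKO cold against WT RT, and 0 and 10 in footprints. With 1 library left out, the counts ranged over 1 to 6 lower in WT cold, 1 to 2 higher and 14 to 23 lower in cKO cold against WT cold, 0 to 18 higher and 0 to 3 lower in cKO cold against WT RT, 1 to 3 higher in m6A over input in WT RT, and 0 to 1 higher and 1 to 11 lower in footprints. Where a group keeps 1 library, that library is assumed to vary like the other groups. Of the values for single genes under alternatives, 768 kept their direction and side of the threshold, 53 no longer passed, 15 newly passed and 6 changed sign. Genes with few reads, such as Cox6a2, Cox6b2 and Cox16, are limited by depth.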
